A study of Mus musculus with 10 samples.

Results

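The Hox genes encode homeodomain transcription factors, and their recognition motifs were scored alongside their RNA in cultured smooth muscle cells of the mouse aorta. Genes were taken by symbol, as all rows of the expression table named Hoxa, Hoxb, Hoxc or Hoxd with a number, which gave 39 of 36144 genes. Motifs were taken by name, as all rows of the footprint table in which a part of the name is a HOX A, B, C or D factor, which gave 43 of 879 motifs. The choice by name used no measured value. The cells were primary vascular smooth muscle cells grown from the aortic media, without the adventitia, of male mice aged 8 weeks, and were used between passages 2 and 7. One genotype was wild type. The other carried Myh11-Cre-ERT2, a tamoxifen-dependent Cre recombinase under a smooth muscle promoter, together with overexpression of Adamts7, which encodes a secreted metalloprotease. For RNA, 3 mice of each genotype gave 1 library each, and open chromatin was profiled by ATAC-seq on 50000 cells from each of 2 mice per genotype. No Cre driver is named for wild-type mice, so driver and overexpression cannot be told apart. Tamoxifen treatment and the passage of single libraries are not stated.

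Mammalian Hox genes lie in 4 clusters, and genes at matching positions in different clusters form paralog groups numbered along the cluster. In the embryo the low-numbered genes are expressed from more anterior levels of the body axis and the high-numbered genes from more posterior levels, in the same order as the genes lie on the chromosome. Adult vascular smooth muscle and endothelial cells keep a Hox pattern that depends on the vessel they come from. HOX proteins bind short AT-rich sites with a TAAT or TTAT core, and their choice of site is sharpened by cofactors of the TALE class, the PBX, MEIS and PKNOX proteins. Below, groups 1 to 3 are called anterior, 4 to 8 central and 9 to 13 posterior.

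Adamts7 itself was at 6.08, 6.18 and 8.20 TPM in wild-type cells, against 98.7, 79.1 and 75.8 TPM in overexpressing cells, so the RNA matches the genotype label in every library. TPM are transcript abundances scaled for transcript length and to the same total in every library, so levels of different genes can be compared. The labelled cell type was checked on marker lists. Smooth muscle markers were present, with Acta2 at 1249 ± 40.8 and Myh11 at 37.3 ± 6.59 TPM in wild type (SD, n = 3), but endothelial markers were also high, with Emcn at 2046 ± 191 and Cdh5 at 919 ± 48.1 TPM. The summed level of 10 endothelial markers was 4409 to 4912 TPM in the wild type and 2258 to 3726 TPM in overexpression, with 9 of 10 lower. The summed level of 11 macrophage markers was 436 to 655 TPM in the wild type and 1073 to 3433 TPM in overexpression, with 11 of 11 higher. The 10 smooth muscle markers summed to 4034 to 4154 and 4651 to 6282 TPM, with 9 of 10 higher. The 8 fibroblast markers summed to 1122 to 1282 and 1080 to 1184 TPM, the 6 mesothelial and epithelial markers to 166 to 184 and 122 to 173 TPM, and the 4 Schwann and neural markers to 1.39 to 1.99 and 3.03 to 15.02 TPM. No marker of these lists was at 0 in all libraries. On the first principal component of all tested genes, the overexpression libraries spread over 18.6, 39.4 and -0.67 for replicates 1, 2 and 3, against -20.3 to -16.8 in wild type, so replicate 2 stood farthest from wild type and replicate 3 nearest to it.

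Clusters a and b carried most of the Hox RNA. The clusters lie on chromosomes 6, 11, 15 and 2 of GRCm38, at chr6:52155367-52260880 (Hoxa), chr11:96194316-96368254 (Hoxb), chr15:102921131-103036856 (Hoxc) and chr2:74668225-74765142 (Hoxd). Of the 39 genes, 22 reached the mean of 1 TPM over the 6 libraries that was required for testing: 9 of 11 in cluster a, 8 of 10 in cluster b, 1 of 9 in cluster c and 4 of 9 in cluster d. In wild type, cluster a held 43.9% ± 0.426 of the summed Hox TPM, cluster b 43.9% ± 0.925, cluster d 11.4% ± 1.26 and cluster c 0.791% ± 0.156 (SD, n = 3). By class, 6 of 8 anterior, 12 of 15 central and 4 of 16 posterior genes were tested, and the central class held 62.5% ± 0.493 of the wild-type Hox TPM, the posterior class 19.8% ± 0.488 and the anterior class 17.7% ± 0.490.

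The most abundant members were central genes. Hoxb7 was at 43.6, 47.1 and 49.6 TPM in the wild-type libraries and 42.1, 32.5 and 42.8 TPM in the overexpression libraries, so the groups did not overlap. Hoxa7, of the same paralog group, was at 40.3, 40.3 and 45.2 TPM and at 35.2, 26.5 and 42.6 TPM, with the third overexpression library inside the wild-type range. Hoxa5 was at 38.5, 36.4 and 34.7 TPM and at 34.3, 39.1 and 36.0 TPM, where the overexpression range covers that of wild type. Hoxa5 has a known role in lung and skeletal patterning and is expressed in vascular cells.

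Hoxa9, the most abundant posterior gene and a known regulator of haematopoietic and endothelial cells, followed at 32.7, 31.9 and 33.3 TPM in the wild type and 21.6, 16.4 and 27.9 TPM in overexpression. Of cluster d, Hoxd8 was the most abundant, at 31.0, 27.8 and 37.4 TPM and at 30.8, 20.6 and 21.5 TPM, where the first overexpression library lay within the wild-type range. Hoxb6 was at 30.0, 29.5 and 29.9 TPM and at 28.3, 23.1 and 27.0 TPM, all lower than wild type. Hoxb8 was at 30.2, 26.1 and 27.7 TPM and at 26.3, 14.99 and 24.9 TPM, with overlap through the first overexpression library. Neighbours in this order mostly did not differ beyond their spread: Hoxb7 and Hoxa7 had wild-type means of 46.8 ± 3.00 and 41.9 ± 2.79 TPM, and Hoxa9 and Hoxd8 of 32.6 ± 0.719 and 32.1 ± 4.91 TPM (SD, n = 3).

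The neighbours of Hoxd8 were far lower. Its neighbour Hoxd9 was at 6.23, 6.63 and 8.03 TPM in the wild type and 6.63, 3.75 and 5.52 TPM in overexpression, and Hoxd4 at 6.85, 9.17 and 10.9 TPM and at 6.75, 6.14 and 6.79 TPM. The 3 overexpression values of Hoxd4 lay just under the lowest wild-type value. In cluster c only Hoxc6 was tested, at 1.65, 2.16 and 2.23 TPM and at 3.53, 1.12 and 2.42 TPM, with the highest and the lowest values both in overexpression. Hoxc4 was at 0.585 ± 0.0696 and 0.628 ± 0.122 TPM and Hoxc9 at 0.346 ± 0.0973 and 0.386 ± 0.170 TPM (SD, n = 3 each).

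Hoxc11, Hoxc12, Hoxd11 and Hoxd12 were listed at 0 in all 6 libraries. The other 13 untested genes had means of at most 0.707 TPM, the value of Hoxa11, and the highest value in any library was 1.25 TPM, for Hoxc5 in overexpression replicate 1. Hoxa11 marked a sharp edge in cluster a, since its neighbour Hoxa10 was at 22.7 ± 3.33 TPM and Hoxa11 at 0.881 ± 0.212 TPM in wild type (SD, n = 3). Cluster b likewise ended at Hoxb9, with 24.6 ± 1.39 TPM against 0.0506 ± 0.0266 TPM for Hoxb13, the only cluster b gene beyond it. Values within overlapping gene spans are uncertain where reads were divided between them, which concerns Hoxa3 with Hoxa4, Hoxa5 and Hoxa6, Hoxb3 with Hoxb4, Hoxd3 with Hoxd4, and Hoxd10 with Hoxd11.

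**Figure D1:**
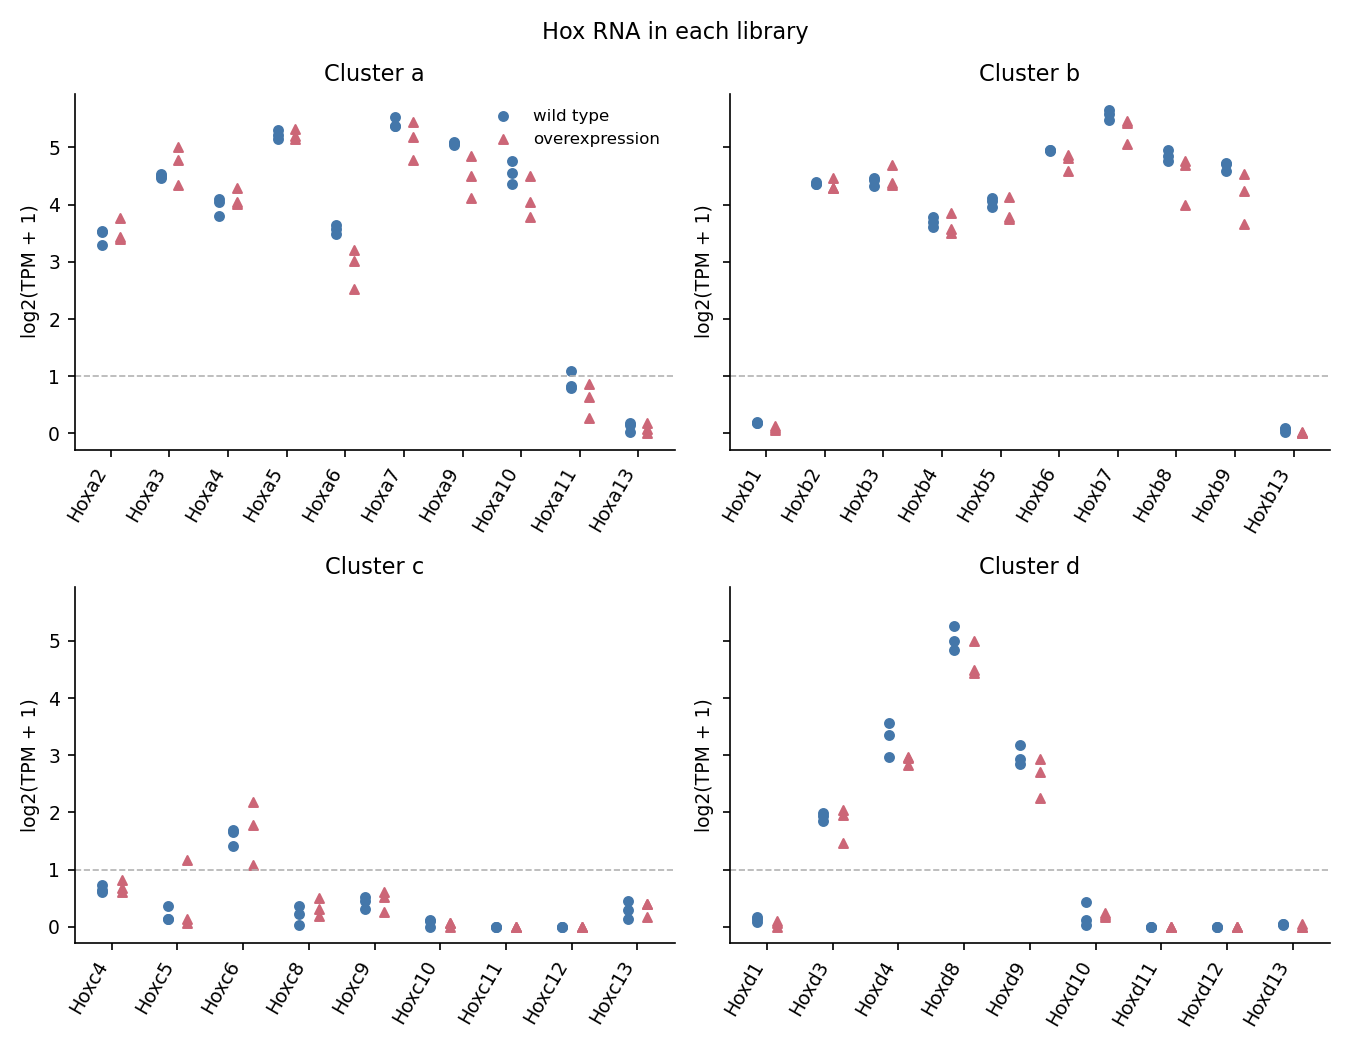
Level of 38 of the 39 Hox genes as log2(TPM + 1), by cluster and in chromosomal order of paralog number, with 1 circle per wild-type library and 1 triangle per overexpression library. The dashed line marks 1 TPM. Clusters a and b are expressed from Hoxa2 or Hoxb2 up to Hoxa10 and Hoxb9, and cluster c lies near 0 apart from Hoxc6.

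Most of the Hox promoters read here held TAAT, a core of the HOX sites. RefSeq gave 24 promoters for 22 Hox genes, read here as the 250 bases before each transcript start in GRCm38.p6. These are not the 22 tested genes: untested genes such as Hoxa11 and Hoxd13 are among them, and tested genes such as Hoxb7 and Hoxb9 are not. The letters TAAT, searched on both strands, stood in 18 of 24 Hox promoters and in 54.9% of all 32851 promoters of the same length. TTTAT, on both strands and contained in every TATAAA, stood in 37.5% and 37.3%. TGATTNAT, the joint PBX and HOX site, stood in 8.33% and 2.82%, CCAAT in 58.3% and 33.8%, and TATAAA in 16.7% and 12.4%. Hox promoters had a median of 12.5 CpG and 58.6% GC, against 6 CpG and 52.4% GC over all promoters. A match is a run of letters and not a measured site. Shown are 2 promoters from each of the clusters a and b, 1 from the low-numbered and 1 from the high-numbered side, picked after their genes' values were seen, with TAAT or its reverse complement ATTA in capitals. They are Hoxa5 (chr6:52204588-52204837, minus strand, 3 matches), Hoxa9 (chr6:52227371-52227620, minus strand, 2 matches), Hoxb4 (chr11:96318017-96318266, plus strand, 1 match) and Hoxb8 (chr11:96281655-96281904, plus strand, 2 matches).
Hoxa5: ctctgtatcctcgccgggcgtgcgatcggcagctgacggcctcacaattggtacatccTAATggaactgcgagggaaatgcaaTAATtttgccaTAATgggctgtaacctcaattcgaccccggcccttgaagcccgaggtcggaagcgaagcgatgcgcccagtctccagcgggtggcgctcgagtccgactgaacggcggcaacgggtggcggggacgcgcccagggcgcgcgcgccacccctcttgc
Hoxa9: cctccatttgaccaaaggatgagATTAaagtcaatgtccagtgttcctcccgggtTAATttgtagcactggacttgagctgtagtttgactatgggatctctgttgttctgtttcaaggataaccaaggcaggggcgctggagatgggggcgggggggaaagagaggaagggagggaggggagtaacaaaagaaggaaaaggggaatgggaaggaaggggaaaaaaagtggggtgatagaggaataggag
Hoxb4: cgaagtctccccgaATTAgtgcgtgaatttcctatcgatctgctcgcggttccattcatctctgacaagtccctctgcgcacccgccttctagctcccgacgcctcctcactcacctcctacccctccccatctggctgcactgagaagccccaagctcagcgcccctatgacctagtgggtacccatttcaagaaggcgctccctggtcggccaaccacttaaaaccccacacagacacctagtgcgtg
Hoxb8: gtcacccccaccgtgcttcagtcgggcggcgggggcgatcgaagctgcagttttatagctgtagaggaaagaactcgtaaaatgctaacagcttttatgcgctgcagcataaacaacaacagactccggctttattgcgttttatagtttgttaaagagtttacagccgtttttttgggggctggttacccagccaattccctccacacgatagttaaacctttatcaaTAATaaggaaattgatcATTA

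Hoxb8 also held 6 matches of TTTAT and 2 of TATAAA, and the Hoxa5, Hoxa9 and Hoxb4 promoters held none of either. The Hoxa5 promoter had 28 CpG and the Hoxa9 promoter 3.

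The comparison of overexpression with wild type asked which Hox genes differ with the Adamts7 genotype. No Hox gene passed the threshold of the test (limma on log2(TPM + 1), Benjamini-Hochberg adjusted p under 0.05 over all 13131 tested genes), where 0.0152% of all genes did. At an unadjusted p under 0.05, 5 of 22 tested Hox genes were lower in overexpression and 0 were higher, against 8.94% of all genes lower and 10.6% higher. The 5 were Hoxa6, Hoxa9, Hoxa10, Hoxb9 and Hoxd4, and the count dropped to 3 when wild-type replicate 2 was left out (6.18% of all genes) and to 2 when wild-type replicate 3 was (5.25%). In 6 of 22 genes (Hoxa6, Hoxa9, Hoxb6, Hoxb7, Hoxb9 and Hoxd4) all overexpression libraries lay below all wild-type libraries, and in 0 above, against 12.9% and 14.3% of all genes. The median log2 fold change was -0.17 over the 22 genes, with 16 negative, and -0.009 over all tested genes, of which 51.7% were negative. In bulk RNA, fewer cells of a type and less RNA per cell cannot be told apart.

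Values were lower at higher paralog numbers. Medians were 0.073 for the 6 tested anterior genes, -0.22 for the 12 central genes and -0.49 for the 4 posterior genes. Across the 22 genes the Spearman correlation of paralog number with log2 fold change was -0.77, and it was -0.80 over 9 genes of cluster a and -0.98 over 8 genes of cluster b. The value over the 22 genes was -0.63 without overexpression replicate 2, and -0.30 over the 35 genes that remain with no filter on low levels. These are descriptions across genes that share the same 6 libraries, and genes of a cluster are not independent replicates. A division between groups 5 and 6, chosen after the values were seen, gave a median of -0.0021 over 11 tested genes of groups 1 to 5 and -0.37 over 11 tested genes of groups 6 to 13, of which 10 were negative.

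**Figure D2:**
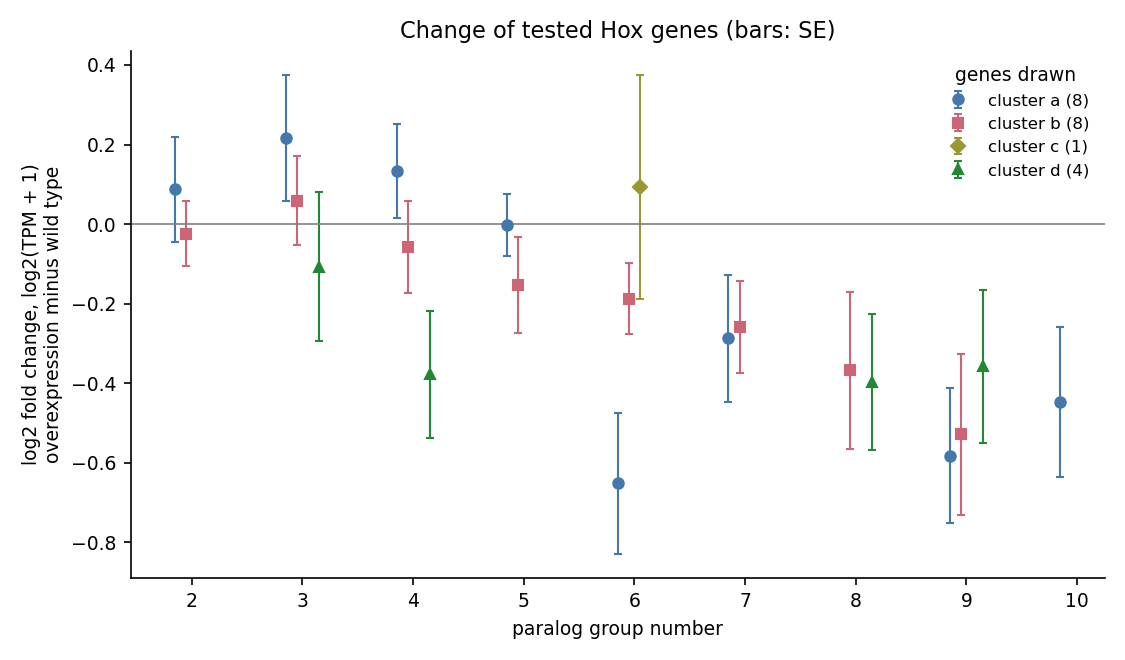
Log2 fold change of 21 of the 22 tested Hox genes, overexpression minus wild type on the log2(TPM + 1) scale, by paralog group number, with bars of 1 SE. Clusters have their own symbols. Values of groups 2 to 5 lie on both sides of 0, with Hoxa3 highest at 0.22 and Hoxd4 lowest at -0.38, and those from group 6 on lie below 0 except Hoxc6 at 0.093.

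Among the 6 tested anterior genes, which pattern the hindbrain and neck region, none separated by genotype. Hoxa3 was at 21.6, 22.2 and 21.0 TPM and at 26.6, 31.2 and 19.4 TPM, with the third overexpression library below wild type and the other two above it, and a log2 fold change of 0.22 ± 0.16. Its adjusted p was 0.491 (limma). Hoxa2 had a log2 fold change of 0.087, Hoxb2 of -0.024, Hoxb3 of 0.058 and Hoxd3 of -0.11, each within 1 SE of 0. Hoxa3 and Hoxb3 are known in the development of the pharyngeal arches and their vessels.

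Of the 12 tested central genes, 10 had negative values. Hoxa4 was at 16.2, 13.01 and 15.6 TPM in the wild type and 15.5, 18.7 and 15.1 TPM in overexpression, a log2 fold change of 0.13 ± 0.12. Hoxa5 had -0.0021 ± 0.078, Hoxb4 -0.058 ± 0.12 and Hoxb5 -0.15 ± 0.12, and their groups overlapped. Hoxd4, the lowest of the group 4 genes, had -0.38 ± 0.16 with an adjusted p of 0.253 (limma).

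Hoxa6 had the smallest p of all Hox genes. It was at 11.5, 10.9 and 10.2 TPM in the wild type and 7.09, 4.75 and 8.26 TPM in overexpression, so that every overexpression library was below every wild-type library. Its log2 fold change was -0.65 ± 0.18 (SE), with an adjusted p of 0.145 (limma). The span of Hoxa3 covers that of Hoxa6, and whether reads were divided between them was not tested. Hoxa7 had -0.29 ± 0.16, Hoxb6 -0.19 ± 0.089, Hoxb7 -0.26 ± 0.12, Hoxb8 -0.37 ± 0.20 and Hoxd8 -0.40 ± 0.17, with adjusted p from 0.257 to 0.360. Hoxc6 had 0.093 ± 0.28, the widest error of the tested genes.

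All 4 tested posterior genes were lower on average. Hoxa9, given above by library, was at 32.6 ± 0.719 TPM in the wild type and 21.9 ± 5.78 TPM in overexpression (SD, n = 3 each), with a log2 fold change of -0.58 ± 0.17 with an adjusted p of 0.151 (limma). Hoxb9 was at 25.6, 25.2 and 23.0 TPM and at 17.9, 11.7 and 22.2 TPM, a log2 fold change of -0.53 ± 0.20 with an adjusted p of 0.219. Both had groups that did not overlap, Hoxb9 by a small margin through overexpression replicate 3. Hoxa10, which patterns the lumbar skeleton and the uterus, was at 19.6, 22.4 and 26.2 TPM and at 15.5, 12.8 and 21.6 TPM, with overlap and a log2 fold change of -0.45 ± 0.19. Hoxd9 had -0.36 ± 0.19 with overlapping groups.

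Paralogs of the same group were not always alike. In group 9 all 3 tested genes were negative, with Hoxa9 at -0.58, Hoxb9 at -0.53 and Hoxd9 at -0.36, although Hoxd9 was expressed at a lower level than the other two. In group 8, Hoxb8 at -0.37 and Hoxd8 at -0.40 differed by less than their errors. In group 6, Hoxa6 at -0.65, Hoxb6 at -0.19 and Hoxc6 at 0.093 were spread widely, and in group 4 Hoxa4 at 0.13 and Hoxd4 at -0.38 had opposite signs, with Hoxb4 at -0.058. Differences between paralogs were not tested.

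Of the anterior and central genes of cluster b, Hoxb2 was at 19.7 ± 0.397 and 19.4 ± 1.42 TPM, Hoxb3 at 20.3 ± 1.09 and 21.3 ± 3.13 TPM, Hoxb4 at 11.99 ± 0.766 and 11.5 ± 1.64 TPM, and Hoxb5 at 15.5 ± 0.944 and 13.96 ± 2.27 TPM (wild type and overexpression, SD, n = 3 each). In each of these 4 genes the overexpression libraries were spread more widely than the wild-type libraries, and replicate 2 was the highest of the 3. Hoxd3 was at 2.80 ± 0.173 and 2.58 ± 0.734 TPM and Hoxa2 at 9.94 ± 0.991 and 10.7 ± 1.72 TPM.

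Levels were also summed on the linear scale on each side of the division between groups 5 and 6. That division was chosen from these same values, so the sums are not separate support for it. Genes of groups 1 to 5 summed to 170, 165 and 169 TPM in the wild type and to 166, 192 and 156 TPM in overexpression. Genes of groups 6 to 13 summed to 274, 273 and 295 TPM and to 237, 169 and 249 TPM, so that the higher-numbered sum was below wild type in all 3 overexpression libraries, while the lower-numbered sum lay on both sides. Their ratio was 1.61, 1.65 and 1.74 in wild type and 1.43, 0.883 and 1.59 in overexpression, and replicate 3 was close to wild type. By paralog group, the overexpression mean was 1.01, 1.11, 0.965 and 0.975 times the wild-type mean for groups 2 to 5. It was 0.824, 0.833, 0.774, 0.696 and 0.735 times the wild-type mean for groups 6 to 10. The posterior share of Hox TPM was 19.8% ± 0.488 in wild type and 15.9% ± 3.47 in overexpression, and the anterior share 17.7% ± 0.490 and 22.1% ± 4.32 (SD, n = 3 each). The share of cluster b was 43.9% ± 0.925 and 43.8% ± 0.0341, so the weight of that cluster differed by less than the spread between libraries.

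Overexpression replicate 2 had the lowest level of all 6 libraries for 11 of 11 tested genes of groups 6 to 13. Its median deviation from the wild-type mean was -0.74 on the log2 scale over those genes, against -0.15 in replicate 1 and -0.14 in replicate 3. Over groups 1 to 5 the medians were 0.15 in replicate 2, -0.036 in replicate 1 and -0.073 in replicate 3. Without replicate 2 the median of groups 6 to 13 was -0.17, with 10 of 11 negative, and 4 Hox genes (Hoxa6, Hoxa9, Hoxb5 and Hoxb9) were lower at an unadjusted p under 0.05, against 6.57% of all genes. Without replicate 3, 2 Hox genes passed the threshold, Hoxa6 and Hoxa9, with adjusted p of 0.0398 and 0.0189 (limma), when 6.30% of all genes did.

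**Figure D3:**
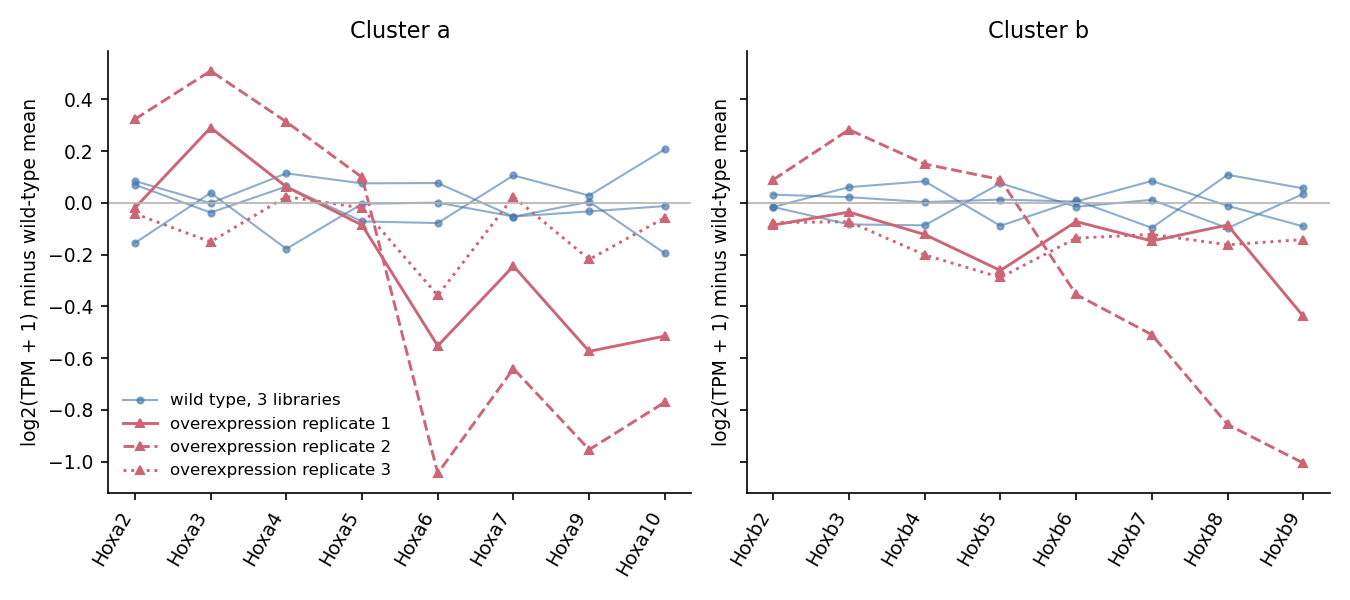
Deviation of each library from the wild-type mean in log2(TPM + 1) for 16 of 17 tested genes of clusters a and b in chromosomal order, with 1 line per library. Overexpression replicate 2 (dashed) lies above the wild-type mean up to Hoxa5 and Hoxb5 and below all other libraries from Hoxa6 and Hoxb6 on.

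The sums of several marker lists had the order of the higher-numbered Hox genes across the overexpression libraries. The endothelial sum was 3080, 2258 and 3726 TPM in overexpression replicates 1, 2 and 3, the same order as the Hox sum of groups 6 to 13. The fibroblast sum, at 1140, 1080 and 1184 TPM, and the mesothelial and epithelial sum, at 145, 122 and 173 TPM, had this order too. In the fibroblast list and in the mesothelial and epithelial list, the most abundant gene had this order but several other genes did not. Of the fibroblast list, Cd34 was at 752, 543 and 928 TPM, and Pi16 at 3.54, 2.22 and 5.22 TPM had this order too. The reverse order was seen for Col1a1, at 312, 444 and 183 TPM, and Ly6a, at 50.8, 64.1 and 45.4 TPM. Dcn was likewise highest in replicate 2 and lowest in replicate 3. The fibroblast sum therefore mainly followed Cd34 and not the list as a whole. Of the mesothelial and epithelial list, Krt18 was at 107, 78.1 and 142 TPM but Krt19 at 34.5, 41.8 and 29.0 TPM. The macrophage sum was 3433, 2782 and 1073 TPM in those libraries, with replicate 1 highest. The smooth muscle marker sum was highest in replicate 2, at 6282 TPM. The part of these cell types in the Hox values was not tested.

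**Figure D4:**
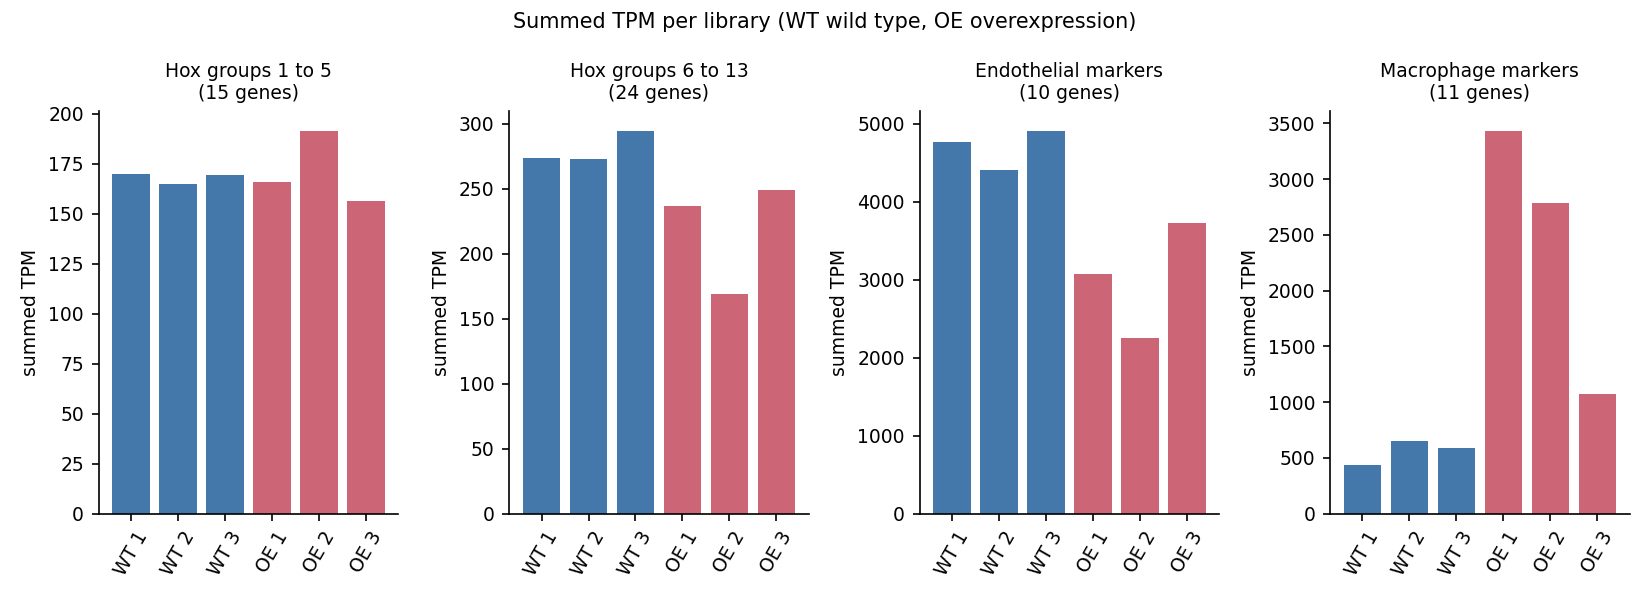
Summed TPM in each library for Hox groups 1 to 5 (15 genes), Hox groups 6 to 13 (24 genes), 10 endothelial markers and 11 macrophage markers, with 1 bar per library (WT wild type, OE overexpression) and axes from 0. The Hox sum of groups 6 to 13 and the endothelial sum are both lowest in overexpression replicate 2.

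All 11 genes of the TALE list were expressed, and 0 of 11 passed the threshold. The list holds Tgif1 and Tgif2 beside the PBX, MEIS and PKNOX genes named above as HOX cofactors. Their sum was 316 to 320 TPM in wild type and 290.0 to 291.4 TPM in overexpression, without overlap. Meis2 was the most abundant, at 69.7, 77.4 and 79.7 TPM in the wild type and 57.1, 46.4 and 66.4 TPM in overexpression, without overlap. Its log2 fold change was -0.42 ± 0.13 (SE) with an adjusted p of 0.161 (limma). Of the 11, only Meis2 had an unadjusted p under 0.05, where 8.94% of all tested genes were lower and 10.6% higher. Tgif1, a TALE repressor, was at 63.7 ± 3.60 and 63.2 ± 2.07 TPM, and Pknox2 at 20.1 ± 1.08 and 16.7 ± 2.93 TPM (SD, n = 3 each). In all, 9 of 11 were lower and 2 higher, with a median of -0.076.

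Among 41 tested regulators of Hox expression, 0 passed the threshold. Of 16 Polycomb genes, which keep Hox genes repressed, 12 were lower and 4 higher, the median log2 fold change was -0.16, and 5 were lower at an unadjusted p under 0.05, where 8.94% of all tested genes were. The most abundant of them, Phc2, was at 117 ± 6.40 and 104 ± 2.59 TPM. A list of 11 genes held trithorax-type genes, which maintain Hox transcription, together with the insulator gene Ctcf and the cohesin gene Rad21. All 11 were lower, with a median of -0.13 and 3 at an unadjusted p under 0.05 beside the same 8.94%. Kmt2a, the methyltransferase MLL1, was at 28.1, 28.8 and 28.1 TPM in the wild type and 22.4, 20.0 and 22.8 TPM in overexpression, without overlap, a log2 fold change of -0.37 ± 0.077 (SE) with an adjusted p of 0.131 (limma). Psip1, which tethers MLL complexes to chromatin, was at 114 ± 9.90 and 107 ± 4.45 TPM. Of 11 genes of retinoic acid metabolism and signalling, which set Hox expression in the embryo, 9 were higher and 2 lower, with a median of 0.16 and 3 higher at an unadjusted p under 0.05, where 10.6% of all genes were. Cyp26b1, which degrades retinoic acid, was at 27.5, 26.0 and 20.7 TPM and at 47.7, 44.9 and 33.3 TPM, a log2 fold change of 0.73 ± 0.16 with an adjusted p of 0.131.

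Other homeobox and positional factors had values on both sides of 0. Of 61 genes, 25 were tested and 0 passed the threshold, with 14 higher and 11 lower and a median of 0.18. Cux1 was at 47.5 ± 2.10 and 61.1 ± 5.59 TPM, a log2 fold change of 0.35 ± 0.083 with an adjusted p of 0.131 (limma). Tbx18, a factor of mural and epicardial cells, was at 9.55 ± 0.770 and 13.7 ± 1.87 TPM, and Hhex, a factor of early endothelium, at 116 ± 5.98 and 92.4 ± 14.4 TPM (SD, n = 3 each). At an unadjusted p under 0.05, 6 of the 25 genes were higher and 4 lower, against 10.6% and 8.94% of all genes. The lists cover genes with known positional roles and were not compared with the Hox genes by a test.

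All 43 HOX motifs had a footprint change score in the direction of overexpression, against 61.9% of all 879 motifs. A footprint score measures how far a motif site in open chromatin is accessible at its flanks and depleted at its centre, and the authors' change score compares it between genotypes. The deposited values pool the 2 mice of each genotype, so they carry no SD and no test of mouse against mouse. The sign is given here so that positive means higher in overexpression. The median change was 0.399 over the HOX motifs and 0.107 over all motifs in the authors' deposited table. Median scores of the HOX motifs were 0.159 in wild type and 0.186 in overexpression, and those of all motifs 0.207 and 0.207, so that HOX sites lay below the typical motif in both genotypes. The authors' deposited table gives a p-value under 0.05 for all 43 HOX motifs, but also for 876 of 879 motifs, or 99.7%.

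The HOX motifs do not provide 43 separate measurements. They hold 32 distinct sets of values, since 16 motifs share all values with another HOX motif. HOXA2, HOXB2, HOXB3, HOXB5 and HOXC8 are identical, with 9342 sites, and share these values with 23 motifs of other homeobox factors. HOXA6, HOXB6 and HOXB7 are identical with each other, as are HOXB4, HOXC4 and HOXD4. HOXA7 shares its values with 15 motifs of other factors. Of the 43, 36 carry a single HOX name and 7 are pairs of a HOX factor with an ETS factor.

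**Figure D5:**
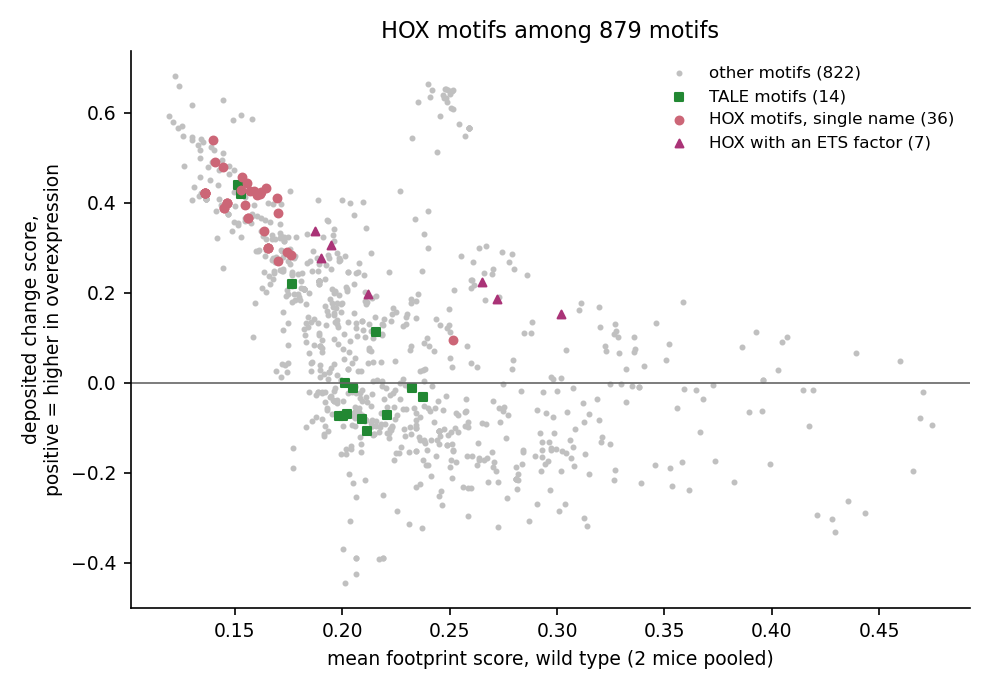
Deposited change score (positive means higher in overexpression) against the mean wild-type footprint score of all 879 motifs, each score pooled over 2 mice, with HOX motifs of a single name, HOX motifs paired with an ETS factor and TALE motifs marked. HOX motifs lie above 0 and mostly at low wild-type scores, where other motifs also have positive changes.

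HOXB13 had the largest change score of the HOX motifs, at 0.540 in the authors' deposited table and rank 40 of 879. Of its 24752 sites, 962 were called bound in wild type and 1285 in overexpression, which is 3.89% (95% Wilson interval 3.65 to 4.13) and 5.19% (4.92 to 5.47). The interval covers the counting of sites only, not the difference between mice. Next in the authors' deposited table came HOXA10 at 0.491, HOXD9 at 0.480, HOXD11 at 0.456 and HOXC10 at 0.443, all posterior. HOXA10 sites were bound in 3.58% (3.31 to 3.86) and 4.74% (4.43 to 5.06). The lowest wild-type score was that of the identical motifs HOXA2, HOXB2, HOXB3, HOXB5 and HOXC8, at 0.136 in wild type and 0.161 in overexpression, with 326 and 376 of 9342 sites bound.

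The smallest change was that of HOXA9, and several ETS pairs followed. HOXA9, with 903 sites, had a change of 0.0949 in the authors' deposited table, with 124 and 126 sites bound, or 13.7% (11.6 to 16.1) and 13.95% (11.8 to 16.4), so no difference was detectable at this number of sites. HOXB2::ELK1 had 0.186, ETV5::HOXA2 0.197 and ELK1::HOXB13 0.225 in the authors' deposited table. HOXB2::ELK1 and ELK1::HOXB13 were also among the HOX motifs with the highest wild-type scores, at 0.272 and 0.265. The ETS pairs HOXD12::ELK1, ETV2::HOXB13 and ERF::HOXB13 had 0.278, 0.306 and 0.336 in the authors' deposited table, and the median of the 7 pairs was 0.225 against 0.414 for the 36 single motifs. By the motif clusters given in the authors' deposited table, the largest HOX group held 12 motifs, HOXA2 and HOXC8 among them, with changes from 0.270 to 0.422. A group of 9 posterior motifs ranged from 0.377 to 0.456 with wild-type scores from 0.153 to 0.170 in the authors' deposited table. The HOXB4, HOXC4 and HOXD4 motif, with 27304 sites the most of the HOX motifs, had a change of 0.299 there and 1330 and 1611 sites bound.

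The share of sites called bound was higher in overexpression for all 43, against 62.8% of all motifs. Medians were 4.86% and 5.90% over the HOX motifs and 8.14% and 8.49% over all motifs. The Wilson intervals of the genotypes were apart in this direction in 23 of 43, identical motifs counted each, against 30.7% of all motifs.

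The motif values were set beside the RNA of the same factors. In the authors' deposited table the median change was 0.422 for anterior, 0.366 for central and 0.426 for posterior motifs of a single name, where the median log2 fold changes of RNA were 0.073, -0.22 and -0.49. Motifs of 21 tested genes had a median change of 0.399 and those of 15 untested genes 0.422 in the authors' deposited table. HOXC11, HOXC12, HOXD11 and HOXD12, whose genes were listed at 0, had motif changes of 0.377, 0.418, 0.456 and 0.433 in the authors' deposited table. Hoxb13, whose motif had the largest change, had means of 0.0506 TPM in wild-type and 0.0072 TPM in overexpressing cells. Across the 36 single motifs the Spearman correlation of wild-type TPM with the wild-type score was -0.015, and with the change in the authors' deposited table -0.40. Motifs with the same values share sites, so these are descriptions with no p. The change also went with the score itself: its Spearman correlation with the wild-type score was -0.75 over the HOX motifs and -0.65 over all motifs.

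The motifs of related factors were read for comparison, without a test. Here a motif is called higher where its change score was positive. The CDX factors, homeobox relatives of the Hox genes that regulate them, were higher for 3 of 3 motifs with a median change of 0.441 in the authors' deposited table. Other homeobox motifs were higher for 92 of 94, with a median of 0.370 in the same deposited table. TALE motifs, with those of the TGIF factors included, were higher for 5 of 14, with a median of -0.022 in the authors' deposited table. More sites were called bound in overexpression for 13 of 14. The TGIF motifs ranged from -0.107 to -0.069 in the authors' deposited table. Within TALE, one MEIS2 motif stood at 0.440 and PBX2 at 0.419 in the authors' deposited table and a MEIS1 motif of the same motif cluster at 0.220, while another MEIS2 motif stood at -0.072.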

How the data were processed

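RNA values are TPM that the authors deposited as 1 gene table, named as kallisto output per the labels, with 3 libraries per genotype and columns that sum to 1000000. Per the submitters' processing notes the genome was mm10. No version of kallisto, annotation or read number is stated, so depth is unknown and no count model was used. All samples carry 1 batch label. The footprint scores, bound sites, change score and p-value are as the authors deposited them, in a table with TOBIAS BINDetect columns per the file headers, pooled over 2 mice per genotype. The deposited counts of sites searched and bound per motif were turned into percent with 95% Wilson intervals, which cover counting error only.

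limma 3.58.1 in R 4.3.3 (eBayes with trend) was run on log2(TPM + 1) of all genes whose mean reached 1 TPM. Its p-values are two-sided and Benjamini-Hochberg adjusted over those genes, and calls use 0.05. Fold changes keep this log2(TPM + 1) scale, which understates low genes. The test was checked on simulated data. Tables were joined in Python 3.11.15 with pandas 2.3.3. Promoter sequences and gene positions are from RefSeq tables of GRCm38.p6, the assembly also called mm10; all 39 Hox genes matched. The members, lists and alternatives were chosen with earlier results of these data known. The naming rule took every tested Hox gene and, from each list the 2 most abundant genes and the 2 of smallest p; some of those items are not reported here. Other settings were 15, and the closing section gives their effect. Protein sequences and RNAs of the clusters other than Hox genes were not analysed here. The overexpression RNA titles begin with the wild-type abbreviation; the genotype label was used.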

Additional observations from a re-analysis of the deposited data

How the results depend on the processing

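No Hox gene was called in 13 of 15 other settings of the test. With library quality weights 6 of 22 Hox genes were called, all lower (Hoxa6, Hoxa9, Hoxa10, Hoxb5, Hoxb9 and Hoxd4). In all, 2728 genes were called then, or 20.8% of those tested. Leaving out 1 library gave 0 to 2 Hox genes and 1 to 828 genes in all, the highest both without overexpression replicate 3. A filter at 5 TPM gave 1 gene in all and the replicate block 1 gene in all with 0 Hox genes, against 2 genes reported. Same-numbered libraries of the genotypes did not deviate together (correlations of -0.0221, 0.0581 and 0.0175). No pairing by number was seen, but 3 libraries per genotype cannot exclude one. In the lists, quality weights called 1 of 11 TALE genes, 9 of 25 other homeobox genes and 14 of 41 regulators, beside 20.8% of all genes. Leaving out 1 library gave 0 to 1, 0 to 6 and 0 to 5, beside at most 6.30% of all genes. The median Hox log2 fold change was negative throughout, from -0.22 to -0.058. The median of groups 6 to 13 was -0.37 and ranged from -0.17 without overexpression replicate 2 to -0.51 without overexpression replicate 1; these and the next 2 were alternatives chosen after seeing the data. Hox genes lower at an unadjusted p under 0.05 were 2 to 6 with 1 library left out, when 5.25% to 13.8% of all genes were. Those with all overexpression libraries below wild type were 6 to 9, when 14.9% to 24.8% of all genes were.

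Genes with values near 0 changed sign. Hoxa5 was at 0.0070 with quantile normalisation and 0.0083 with median-of-ratios scaling, and Hoxb3 at -0.0076 with quality weights. With 1 library left out, Hoxa2 ranged from -0.031 to 0.15, Hoxa5 from -0.053 to 0.040, Hoxb2 from -0.081 to 0.0066, Hoxb3 from -0.054 to 0.12, Hoxb4 from -0.16 to 0.014, Hoxc6 from -0.16 to 0.39 and Hoxd3 from -0.22 to 0.072. As shares of genes at 1 TPM or more in place of TPM, clusters a, b, c and d held 40.9%, 36.4%, 4.55% and 18.2%, and the anterior, central and posterior classes 27.3%, 54.5% and 18.2%. The median motif change was 0.216 as a log2 ratio of scores, 0.218 as a log2 ratio of bound shares and 0.306 with 1 value per motif cluster. The causes were not tested. Depth is unknown for RNA, and the motif values have no replicates.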

Other observations

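The genes around the clusters were read to see whether neighbours outside them moved alike; the rule, the 3 nearest tested genes on each side of each cluster, was chosen after seeing the data. Of these 24 genes, 9 were negative, the median log2 fold change was 0.069, and values ranged from -0.44 to 0.32. At an unadjusted p under 0.05, 3 of 24 were lower (Jazf1 at -0.44, Atf7 at -0.32 and Calcoco1 at -0.26), against 8.94% of all tested genes. Another 3 were higher (Mrpl23-ps1 at 0.32, Skap2 at 0.22 and Atp5g1 at 0.19), against 10.6% of all tested genes. Skap2, an adaptor protein gene of immune cells beside cluster a, was at 102 TPM in wild type.

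Among the other positional factors, Prrx2, a homeobox gene of mesenchyme, was at 7.36 ± 3.81 TPM in the wild type and 42.8 ± 45.0 TPM in overexpression (SD, n = 3 each), a spread as wide as its mean. Lhx9 was at 1.48 ± 0.227 and 4.36 ± 1.97 TPM and Tbx15 at 1.73 ± 0.409 and 5.33 ± 3.40 TPM. Nkx2-3, a factor of gut and splenic vessels, was at 35.0 ± 0.919 and 23.6 ± 9.07 TPM, and Msx1 at 7.37 ± 0.591 and 4.84 ± 0.856 TPM. None passed the threshold of limma.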
